A study of Homo sapiens with 60 samples.

Results

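Yijung-tang is a traditional digestive herbal mixture, usually made up of ginseng, dried ginger, atractylodes rhizome and licorice. Its hot water extract was given to HepG2 cells, an established human hepatocellular carcinoma line, for 24 h, and RNA was then sequenced from the whole culture. The comparison described here is that of 500 against 20 µg/mL of the extract, with 3 libraries at each dose, which are 6 of the 60 libraries of the series. The libraries were chosen by their labelled treatment and dose alone, and 3 libraries at 100 µg/mL served as the middle of the dose course. All 9 libraries came from cells given the extract, so 20 µg/mL was the low dose of a course and not an untreated control. The 3 vehicle libraries were given 0.1% DMSO for 24 h by their labels, where the design text of the series gives 2%. They carry another title code than the Yijung-tang libraries, though the titles of both read BatchB. The remaining libraries were given water extracts of other single herbs or mixtures, and 2 of these extracts at 500 and 20 µg/mL were set beside Yijung-tang: Banhasasim-tang, a mixture whose libraries share a title code with it, and Citri Unshius Pericarpium, the dried peel of a mandarin, under another code. Nothing in the labels tells if the 3 replicates of a dose grew as cultures of their own, and the p-values therefore rest on the spread among libraries, which may be technical.

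Several responses of liver cells to plant extracts run through well known sensors. NRF2 is a transcription factor that is held back and degraded until electrophiles modify its partner KEAP1, after which it turns on genes for glutathione synthesis, quinone reduction and iron storage. The aryl hydrocarbon receptor binds flat aromatic molecules and induces cytochrome P450 genes such as CYP1A1. Metallothioneins are small cysteine-rich proteins that bind zinc and copper, and their genes are switched on by MTF1 when free zinc rises. YAP and SRF are transcription factors or coactivators tied to cell spreading, actin assembly and growth factor signals, and immediate early genes are the fast first targets of such signals.

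The expected counts per library summed to between 24406885 and 28716593 in the 9 Yijung-tang libraries and to between 17598646 and 30451640 over the whole series. Levels are given as CPM, the counts of a gene relative to the counts of its whole library, after scaling for library composition, and 16093 genes passed the filter on low counts. All 12 hepatocyte markers were detected, with summed levels of 44971 to 45665 CPM at 20 µg/mL, 42929 to 43860 CPM at 100 µg/mL and 41415 to 44915 CPM at 500 µg/mL. Some members of the marker lists of fibroblasts (DCN, LUM), endothelium (KDR, CLEC4G) and blood cells (PTPRC, CD3E) were at 0 in all 9 libraries. Other genes of these lists were detected. At 20 and 500 µg/mL the fibroblast marker PDGFRB stood at 9.32 to 11.4 CPM, the endothelial marker PECAM1 at 2.49 to 3.42 CPM and the blood cell marker CD14 at 2.00 to 2.80 CPM. The 8 blood cell markers summed to 1197 to 1302 CPM at 20 µg/mL, 1158 to 1310 CPM at 100 µg/mL and 1036 to 1193 CPM at 500 µg/mL, nearly all of it LYZ, a lysozyme, with CD68 at 33.8 to 47.6 CPM at 20 and 500 µg/mL. The 8 fibroblast markers summed to 61.9 to 67.8 CPM, 61.2 to 64.6 CPM and 67.8 to 72.1 CPM at the 3 doses in rising order, mostly ACTA2, a smooth muscle actin, and the 7 endothelial markers to at most 4.53 CPM. The difference in level between long and short transcripts was 0.32 (log2) in replicate 1 at 20 µg/mL and -0.25 in replicate 2 at 500 µg/mL, relative to the mean library, and the corresponding trend with GC content was highest, at 0.30, in replicate 1 at 500 µg/mL. The part of these trends in the results was not tested beyond the fits that remove them. In bulk RNA, a change in the share of cells in a given state and a change in RNA per cell cannot be told apart.

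Between 20 and 500 µg/mL, 607 of the 16093 genes were called (3.77%; edgeR quasi-likelihood test, Benjamini-Hochberg adjusted p under 0.05). Of these, 266 rose (1.65%) and 341 fell (2.12%). The changes were small: the median log2 fold change was 0.25 among genes that rose and -0.29 among those that fell, and 29 genes rose and 88 fell by more than 0.5. CYP1A1 and the aldo-keto reductase AKR1B10 stood at the top among the genes that rose, and the metallothioneins MT1F and MT2A and the adhesion gene TNS4 at the bottom among those that fell, of protein-coding genes with a mean of 5 CPM or more, no near-identical copy and no overlap between the 3 and 3 libraries. The 3 and 3 libraries did not overlap for 575 of the 607 called genes, against 2564 (15.9%) of all tested genes. Genes that fell had longer transcripts (median 5086.5 bases) than genes that rose (2685 bases) or all tested genes (3161 bases), and genes that rose had a higher GC content (median 54.3%) than genes that fell (46.7%) or all tested genes (48.6%). Without replicate 1 at 20 µg/mL 343 genes were called, without replicate 2 at 500 µg/mL 374 and without replicate 1 at 500 µg/mL 398. The fit took its spread from all 57 libraries of groups with replicates. A fit to the 6 libraries alone called 135 genes, 69 of them higher and 66 lower.

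**Figure D1:**
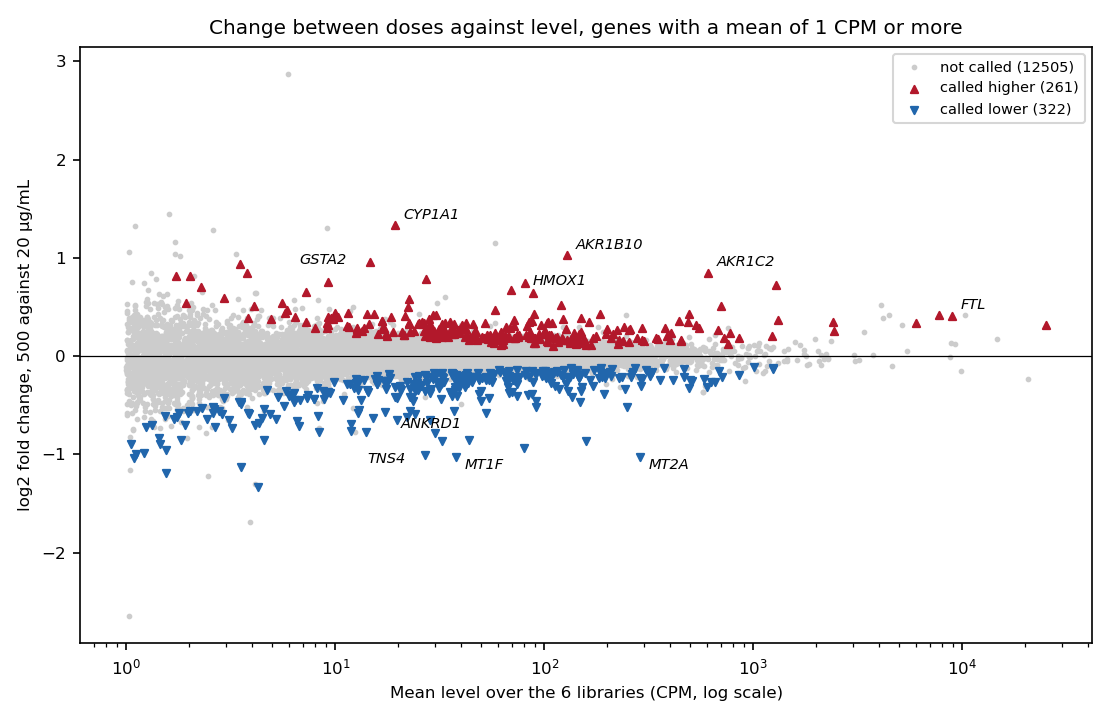
Log2 fold change of 500 against 20 µg/mL (vertical axis) against the mean level over the 6 libraries in CPM (horizontal axis, log scale) for genes with a mean of 1 CPM or more. Triangles mark the 261 genes called higher and the 322 called lower, grey points the genes not called; most called genes moved by less than 0.5, and CYP1A1, AKR1B10, TNS4, MT1F and MT2A lie at the edges.

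The middle dose divided the change into 2 steps. Between 20 and 100 µg/mL, 200 genes were called (1.24%; 114 higher, 0.708%, and 86 lower, 0.534%), and between 100 and 500 µg/mL 887 genes (5.51%; 406 higher, 2.52%, and 481 lower, 2.99%). These comparisons share libraries with each other and with that of 500 against 20 µg/mL, so their values are given side by side and are not independent. The count for 100 against 20 µg/mL was 70 without replicate 1 at 20 µg/mL, 90 without replicate 1 at 100 µg/mL and 120 without replicate 2 at 20 µg/mL.

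The NRF2 targets rose at the high dose. Of 26 tested members of a list of NRF2 target genes, 20 rose and none fell between 20 and 500 µg/mL, with a median log2 fold change of 0.35 against 0.00 over all genes tested. Between 20 and 100 µg/mL none of the 26 was called by edgeR's quasi-likelihood test, 6 were higher and none lower at an unadjusted p under 0.05, and the median was 0.07; DESeq2 was not run for that comparison. Between 100 and 500 µg/mL 20 rose, with a median of 0.27. The members span the enzymes and carriers of the pathway from glutathione synthesis to export.

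AKR1B10 (chr7:134527592-134541408, GRCh38), an aldo-keto reductase that reduces reactive aldehydes and retinal, stood at 77.5, 88.9 and 87.8 CPM in the 3 libraries at 20 µg/mL, at 94.1, 96.1 and 90.5 CPM at 100 µg/mL and at 167, 187 and 164 CPM at 500 µg/mL. The 500 µg/mL libraries lay well above all others, and the 100 µg/mL libraries were above those at 20 µg/mL with a narrow gap. Its log2 fold change of 500 against 20 µg/mL was 1.03 ± 0.05 (SE; adjusted p = 8.4e-22). The related genes AKR1C2 and AKR1C1, which act on steroids and aldehydes, rose by 0.85 and 0.72, but their sequences are close and RSEM split reads between them, so the share of each is uncertain.

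HMOX1 (chr22:35380361-35394214), the heme oxygenase that breaks down heme and releases iron, stood at 59.9, 59.6 and 61.0 CPM at 20 µg/mL, at 66.4, 62.8 and 54.5 CPM at 100 µg/mL and at 107, 103 and 91.7 CPM at 500 µg/mL. The first 2 doses overlapped and the 500 µg/mL libraries stood apart. The log2 fold change was 0.74 (adjusted p = 3.6e-12). FTL and FTH1, the light and heavy chains of the iron store ferritin, rose by 0.41 and 0.35. GCLM (chr1:93885205-93909456), the modifier subunit of the enzyme that limits glutathione synthesis, went from 52.8, 55.9 and 51.9 CPM at 20 µg/mL through 61.6, 59.3 and 56.4 CPM at 100 µg/mL to 83.4, 86.8 and 86.8 CPM at 500 µg/mL. The 3 doses did not overlap for GCLM, and most of the rise lay between 100 and 500 µg/mL; the log2 fold change of 500 against 20 µg/mL was 0.68 (adjusted p = 2.6e-16). The catalytic subunit GCLC rose by only 0.21.

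NQO1, which reduces quinones by 2-electron transfer, rose by 0.51, from 545, 593 and 592 CPM to 784, 887 and 795 CPM. Nearly all its expected counts were fractional, as RSEM gives where reads are shared with another transcript. The thioredoxin arm was represented by TXNRD1 (0.30), the reductase of thioredoxin, and by SRXN1 (0.38), which repairs oxidised peroxiredoxins. GSR, the glutathione reductase, rose by 0.28. Of the export pumps for conjugates, ABCC2 rose by 0.29 and ABCC3 by 0.35, and EPHX1, an epoxide hydrolase, rose by 0.38. Of the enzymes that supply NADPH through the pentose phosphate pathway, TKT rose (0.23), whereas PGD (0.09) and TALDO1 (0.16) were not called. The cystine carrier SLC7A11, which feeds glutathione synthesis, was not called either, at 0.13 (adjusted p = 0.37), and thioredoxin itself had 0.30 (adjusted p = 0.052).

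Of the 9 tested genes of the aryl hydrocarbon receptor list, 3 rose and 1 fell, with a median of 0.05. Beside targets, the list holds the receptor AHR, its partner ARNT and NFE2L2, the gene of NRF2. CYP1A1 (chr15:74719542-74725610), the cytochrome P450 that oxidises polycyclic aromatics, gave 11.6, 11.2 and 10.1 CPM at 20 µg/mL, 12.7, 10.6 and 10.4 CPM at 100 µg/mL and 30.3, 27.7 and 24.9 CPM at 500 µg/mL. The vehicle libraries, at 12.99, 10.99 and 13.9 CPM, lay with the lower doses, and all 3 libraries at 500 µg/mL lay above them. The log2 fold change was 1.33 ± 0.12 (SE; adjusted p = 1.8e-11) for 500 against 20 µg/mL and 0.04 for 100 against 20 µg/mL. The other members that rose were NQO1, which also belongs to the NRF2 list, and ALDH3A1, an aldehyde dehydrogenase under 1 CPM whose call was lost without replicate 1 or replicate 3 at 20 µg/mL. AHR, the receptor itself, was the member that fell, by 0.27, and TIPARP, one of its direct targets, was not called, at 0.09.

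Conjugation enzymes outside the NRF2 list moved as well. Of 16 tested glutathione transferases and glucuronosyltransferases 4 rose and 1 fell, with a median of 0.12. GSTA2 (chr6:52750089-52763569), a glutathione transferase of the alpha class, stood at 9.19, 10.9 and 9.88 CPM at 20 µg/mL, at 7.28, 9.43 and 7.87 CPM at 100 µg/mL and at 17.1, 23.3 and 17.9 CPM at 500 µg/mL. Its level at 500 µg/mL lay above every library of the lower doses, with a log2 fold change of 0.96. GSTA1 rose by 0.64 and shares reads with GSTA2, so that their separate levels are uncertain. MGST1, a glutathione transferase of membranes, rose by 0.43, and UGT2B10 fell by 0.16. SLC22A7, an organic anion carrier of the hepatocyte, rose by 0.76, from 5.57, 7.97 and 7.10 CPM to 10.7, 12.8 and 11.4 CPM.

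The promoter windows of CYP1A1, GCLM and NQO1 are shown because these genes carry the 2 sensors' best known targets. Windows run from 250 bases before to 50 bases after the start of the gene, 300 bases each, read 5′ to 3′ on the strand of the gene (RefSeq, GRCh38.p14). They lie at chr15:74725479-74725778 (minus strand), chr1:93909381-93909680 (minus strand) and chr16:69726511-69726810 (minus strand). Capitals mark the core of the xenobiotic response element, GCGTG, in CYP1A1. In GCLM and NQO1 they mark TGANNNNGC, a looser pattern than the core of the antioxidant response element. Both were searched on both strands, and a TGANNNNGC match need not be such an element.
CYP1A1: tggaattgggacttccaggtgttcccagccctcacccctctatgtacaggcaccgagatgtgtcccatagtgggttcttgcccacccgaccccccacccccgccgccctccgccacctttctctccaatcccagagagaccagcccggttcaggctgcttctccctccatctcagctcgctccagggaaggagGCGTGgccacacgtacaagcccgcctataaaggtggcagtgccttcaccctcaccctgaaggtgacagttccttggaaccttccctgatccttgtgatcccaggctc
GCLM: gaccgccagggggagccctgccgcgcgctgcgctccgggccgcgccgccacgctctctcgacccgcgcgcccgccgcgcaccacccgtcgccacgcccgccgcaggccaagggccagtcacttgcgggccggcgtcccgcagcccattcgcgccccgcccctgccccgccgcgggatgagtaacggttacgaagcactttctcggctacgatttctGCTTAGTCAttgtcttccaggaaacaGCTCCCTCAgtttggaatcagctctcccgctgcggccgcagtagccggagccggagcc
NQO1: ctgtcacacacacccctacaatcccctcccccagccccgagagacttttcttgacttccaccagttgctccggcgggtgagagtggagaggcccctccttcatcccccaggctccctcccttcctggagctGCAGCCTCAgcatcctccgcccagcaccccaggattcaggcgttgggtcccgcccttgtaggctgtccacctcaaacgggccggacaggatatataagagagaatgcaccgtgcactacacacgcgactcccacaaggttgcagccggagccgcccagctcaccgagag
The CYP1A1 window held 1 match, and 36.5% of the 35116 windows in the table held at least 1, as did 47.8% of the windows of tested genes. GCLM held 2 matches, which 10.9% of windows reached, and NQO1 held 1, which 41.8% reached. Over the NRF2 list, 13 of 23 windows held TGANNNNGC (56.5%), and 19 of the 26 genes had a window. The share was 46.3% for the windows of genes that rose, 38.8% for those of genes that fell and 42.4% for those of tested genes. A match describes these letters and no binding was measured.

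**Figure D2:**
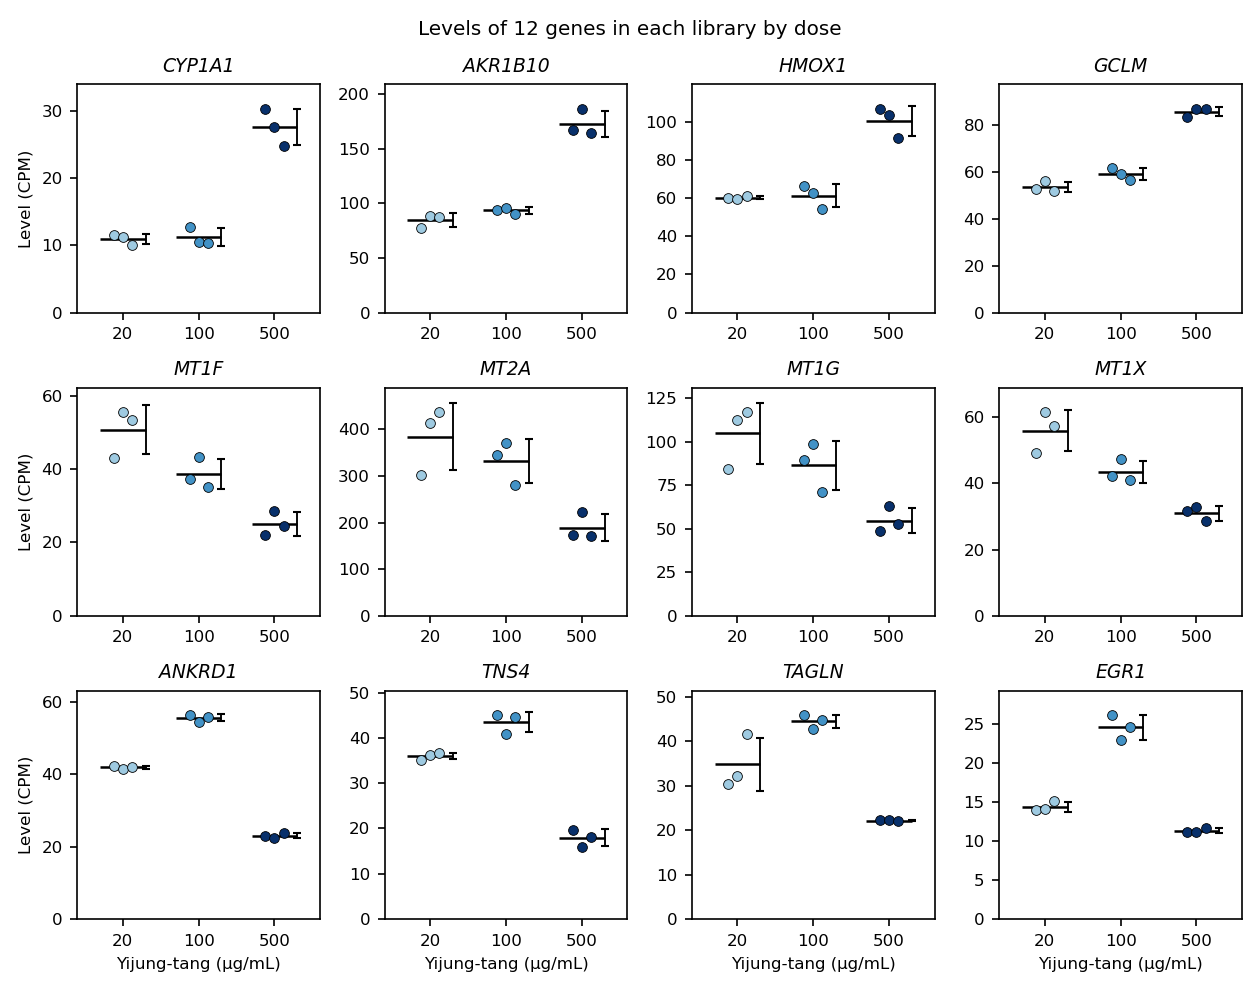
Level in CPM (vertical axis, from 0) of 12 genes in the Yijung-tang libraries at 20, 100 and 500 µg/mL (horizontal axis); points are libraries, horizontal lines are means and bars are ± 1 SD (n = 3). CYP1A1, AKR1B10, HMOX1 and GCLM stand highest at 500 µg/mL, the metallothioneins lowest there, and ANKRD1, TNS4, TAGLN and EGR1 have their highest mean at 100 µg/mL and their lowest at 500 µg/mL.

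Metallothionein genes fell. Of 11 tested metallothionein and zinc genes, 8 fell and 1 rose between 20 and 500 µg/mL, with a median log2 fold change of -0.85, and all 7 tested metallothioneins were among those that fell. Between 20 and 100 µg/mL 2 members fell, with a median of -0.23, and between 100 and 500 µg/mL 6 fell and 1 rose, with a median of -0.49. Summed over the 7 genes, metallothionein RNA came to 643, 878 and 893 CPM at 20 µg/mL, to 689, 758 and 586 CPM at 100 µg/mL and to 378, 479 and 386 CPM at 500 µg/mL. The sums at 20 and 100 µg/mL overlapped, and those at 500 µg/mL lay below both.

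MT1F (chr16:56657694-56660698) showed the steps most clearly, with 43.1, 55.5 and 53.5 CPM at 20 µg/mL, 37.4, 43.3 and 35.2 CPM at 100 µg/mL and 22.03, 28.5 and 24.4 CPM at 500 µg/mL. The 500 µg/mL libraries lay below all others, while the highest library at 100 µg/mL lay just above the lowest at 20 µg/mL. Its log2 fold change was -1.03 ± 0.09 (SE; adjusted p = 1.7e-11) for 500 against 20 µg/mL, -0.40 (adjusted p = 0.0085) for 100 against 20 µg/mL and -0.63 for 500 against 100 µg/mL. MT2A (chr16:56608199-56609497), the most abundant member, stood at 303, 413 and 436 CPM at 20 µg/mL, at 345, 370 and 280 CPM at 100 µg/mL and at 173, 222 and 172 CPM at 500 µg/mL. Its lower doses overlapped and its log2 fold change of 500 against 20 µg/mL was -1.02 (adjusted p = 4.4e-08). MT1G, MT1E and MT1X changed by -0.94, -0.87 and -0.85 with no overlap between 500 and 20 µg/mL. MT1M, a scarce member, went from a mean of 1.64 CPM to 0.286 CPM. The call of MT1A (-0.56) was lost when any of 4 single libraries was left out.

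The zinc carriers moved in smaller steps. SLC30A1, which exports zinc from the cell and is itself induced by zinc, fell by 0.23 (adjusted p = 0.00077), from 122, 113 and 113 CPM at 20 µg/mL to 94.0, 99.8 and 104 CPM at 500 µg/mL. SLC39A10, a zinc importer, rose by 0.36 (adjusted p = 0.00042), from 14.9, 13.6 and 15.3 CPM to 17.6, 19.2 and 19.2 CPM. MTF1, the zinc-sensing factor, was not called (0.02). SLC30A10, a carrier mainly of manganese, had 0.21 for 500 against 20 µg/mL (adjusted p = 0.053), fell by 0.30 from 20 to 100 µg/mL and rose by 0.52 from 100 to 500 µg/mL. In the fit to the 6 libraries alone, 6 of the 11 genes were called.

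The windows of MT2A and MT1X are printed because MTF1 acts through repeated short elements in such promoters. They lie at chr16:56608334-56608633 and chr16:56682220-56682519, both on the plus strand, and capitals mark the core of the metal response element, TGCNCNC, on either strand (overlapping matches run together).
MT2A: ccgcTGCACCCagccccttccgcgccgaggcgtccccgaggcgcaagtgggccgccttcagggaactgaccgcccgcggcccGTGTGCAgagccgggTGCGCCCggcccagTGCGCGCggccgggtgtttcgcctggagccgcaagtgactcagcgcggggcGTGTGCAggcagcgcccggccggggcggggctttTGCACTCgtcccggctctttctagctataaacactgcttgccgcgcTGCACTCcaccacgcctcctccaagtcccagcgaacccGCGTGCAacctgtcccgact
MT1X: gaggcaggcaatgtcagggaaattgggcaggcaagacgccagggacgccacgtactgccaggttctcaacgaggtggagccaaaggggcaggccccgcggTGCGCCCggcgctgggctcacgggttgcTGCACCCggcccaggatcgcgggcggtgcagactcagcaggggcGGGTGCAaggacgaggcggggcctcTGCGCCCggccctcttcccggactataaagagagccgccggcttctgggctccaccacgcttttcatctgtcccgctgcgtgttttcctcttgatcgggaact
MT2A held 8 matches, which 0.0712% of the windows reached, and MT1X held 4, which 2.94% reached. At least 1 match was found in 55.9% of all windows and in 62.4% of those of tested genes, and 2 of the 7 tested metallothioneins had a window in the table.

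Genes of the matrix, adhesion and cytoskeleton fell at the high dose, and some of them stood higher at the middle dose than at either other dose. Called or not, 9 of 21 TGF-beta and YAP targets, 18 of 22 actin genes and 8 of 21 focal adhesion genes had that shape. It was also the shape of 145 of all 341 genes called lower, so only the actin list went well beyond that share. Among 21 tested targets of TGF-beta and YAP, 9 fell and none rose between 20 and 500 µg/mL (median -0.19), whereas 3 rose and none fell between 20 and 100 µg/mL (median -0.03) and 9 fell between 100 and 500 µg/mL (median -0.21). Among 22 genes of the actin cytoskeleton and SRF targets, 6 fell between 20 and 500 µg/mL (median -0.13), 4 rose between 20 and 100 µg/mL (median 0.12), and 15 fell and 1 rose between 100 and 500 µg/mL (median -0.22). Among 21 focal adhesion and integrin genes the counts were 6 that fell, 1 that rose and 8 that fell in the same order. The 6 actin genes became 3 without replicate 1 at 20 µg/mL, without replicate 3 at 20 µg/mL or without replicate 2 at 500 µg/mL. In the fit to the 6 libraries alone, 4 YAP targets, 1 actin gene and 2 focal adhesion genes were called.

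ANKRD1 (chr10:90912096-90921276), a muscle and stress protein and a classic YAP target, gave 42.3, 41.3 and 42.1 CPM at 20 µg/mL, 56.3, 54.5 and 56.0 CPM at 100 µg/mL and 23.1, 22.4 and 23.8 CPM at 500 µg/mL. Each dose formed a tight cluster, and the highest level was at 100 µg/mL. The log2 fold change was -0.86 ± 0.06 (SE; adjusted p = 3.6e-16) for 500 against 20 µg/mL, 0.41 (adjusted p = 8.5e-07) for 100 against 20 µg/mL and -1.27 for 500 against 100 µg/mL. The vehicle libraries had a mean of 41.6 ± 0.511 CPM (SD, n = 3), close to that at 20 µg/mL. TNS4 (chr17:40475828-40501597), a tensin that links integrins to the cell's interior, went from 35.2, 36.2 and 36.6 CPM at 20 µg/mL through 45.0, 41.0 and 44.6 CPM at 100 µg/mL to 19.7, 15.99 and 18.04 CPM at 500 µg/mL. The doses did not overlap, but the difference of 100 against 20 µg/mL (0.27) had an adjusted p of 0.088, while that of 500 against 20 µg/mL was -1.004.

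TAGLN (chr11:117199321-117204782), an actin-binding protein of contractile cells, stood at 30.4, 32.2 and 41.7 CPM at 20 µg/mL, at 45.8, 42.8 and 44.8 CPM at 100 µg/mL and at 22.4, 22.2 and 21.96 CPM at 500 µg/mL. Replicate 3 at 20 µg/mL lay near the 100 µg/mL libraries. The log2 fold change of 500 against 20 µg/mL was -0.65, that of 100 against 20 µg/mL 0.36 (adjusted p = 0.0094), and its counts were fractional throughout. CCN1, a secreted matrix protein and YAP target, stood at 14.7, 16.9 and 14.7 CPM, at 21.3, 21.6 and 19.2 CPM and at 10.8, 9.94 and 10.96 CPM at the 3 doses in rising order. It fell by 0.55 from 20 to 500 µg/mL and rose by 0.42 from 20 to 100 µg/mL. Its relative CCN2 had -0.17 and was not called.

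Other members fell at the high dose with or without a higher level at the middle dose. AXL, a receptor tyrosine kinase, stood at 9.03, 7.94 and 7.99 CPM at 20 µg/mL, at 8.25, 6.83 and 6.76 CPM at 100 µg/mL and at 4.79, 4.95 and 5.48 CPM at 500 µg/mL, a change of -0.71 for 500 against 20 µg/mL. THBS1, a matrix glycoprotein that activates latent TGF-beta, fell by 0.51 with 314, 277 and 290 CPM at 20 µg/mL, 323, 295 and 323 CPM at 100 µg/mL and 211, 196 and 210 CPM at 500 µg/mL. Both genes kept the lowest 3 levels at 500 µg/mL. ITGA2, an integrin that binds collagen, fell by 0.40 and stood 0.28 higher at 100 than at 20 µg/mL (adjusted p = 0.012). Calls on CNN1 (-1.24, under 1 CPM), LTBP2 (-0.53) and ITGA3 (-0.58) were lost when single libraries were left out.

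The ANKRD1 window is shown because the TEAD factors, through which YAP acts, bind GGAATG. It lies at chr10:90921038-90921337 on the minus strand, and capitals mark that motif on either strand.
ANKRD1: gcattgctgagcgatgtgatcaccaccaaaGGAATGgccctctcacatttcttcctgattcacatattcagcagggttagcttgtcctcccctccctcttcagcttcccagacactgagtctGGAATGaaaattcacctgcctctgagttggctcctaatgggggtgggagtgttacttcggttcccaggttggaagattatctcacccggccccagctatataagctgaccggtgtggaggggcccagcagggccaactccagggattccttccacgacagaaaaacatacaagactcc
It held 2 matches, which 1.37% of windows reached. The motif was in 10 of 30 windows of the TGF-beta and YAP list (33.3%, 17 of 21 genes). It was in 15.2% of the windows of genes that fell and in 10.3% of those of genes that rose. The share was 11.6% for the windows of tested genes and 14% for all windows.

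Immediate early genes stood highest at the middle dose. Of 20 tested members, 7 rose between 20 and 100 µg/mL and none fell (median 0.34), 11 fell between 100 and 500 µg/mL (median -0.55), and between 20 and 500 µg/mL 5 fell and 1 rose (median -0.18). The list of ERK pathway feedback genes holds genes that damp growth factor signals, such as DUSP6 and SPRY4, but also the EGF receptor ligands AREG and EREG. Of its 17 tested genes, 5 rose between 20 and 100 µg/mL (median 0.17). Between 100 and 500 µg/mL 9 fell (median -0.38), and between 20 and 500 µg/mL 5 fell (median -0.11). Without replicate 3 at 20 µg/mL, 2 immediate early genes and 3 feedback genes fell between 20 and 500 µg/mL, and without replicate 2 at 500 µg/mL 3 feedback genes fell. In the fit to the 6 libraries alone, 1 immediate early gene and no feedback gene was called. For 100 against 20 µg/mL, the 200 calls over all genes became 18 in a fit to the 9 Yijung-tang libraries. Without replicate 1 at 20 µg/mL they became 70. The list counts of that comparison were not followed through these fits.

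EGR1 (chr5:138465490-138469315), a zinc finger factor induced within minutes by growth signals, gave 14.0, 14.1 and 15.1 CPM at 20 µg/mL, 26.1, 22.9 and 24.6 CPM at 100 µg/mL and 11.2, 11.1 and 11.7 CPM at 500 µg/mL. The doses did not overlap. Its log2 fold change was 0.77 for 100 against 20 µg/mL, -1.12 for 500 against 100 µg/mL and -0.35 for 500 against 20 µg/mL (adjusted p = 0.007), a call that was lost without replicate 3 at 20 µg/mL. AREG, an EGF receptor ligand, stood at 5.07, 5.14 and 5.94 CPM, at 7.76, 8.28 and 6.97 CPM and at 3.40, 3.19 and 3.85 CPM at 20, 100 and 500 µg/mL. Its 3 doses did not overlap either, and its changes were 0.51 for 100 against 20 µg/mL and -0.63 for 500 against 20 µg/mL.

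Several members rose at the middle dose and then returned to the low-dose level or below. FOSL1, an AP-1 subunit, rose by 0.53 from 20 to 100 µg/mL and was not called between 20 and 500 µg/mL (0.13). The orphan receptor NR4A1 rose by 0.43 and then had -0.19 for 500 against 20 µg/mL (adjusted p = 0.30), and SPRY4, a feedback inhibitor of receptor kinases, rose by 0.37 and then had -0.08. IER3 and DUSP6, the latter an ERK phosphatase, rose by 0.47 and 0.21 from 20 to 100 µg/mL and fell by 0.24 and 0.25 from 20 to 500 µg/mL. KLF6, a zinc finger factor, fell by 0.41 from 20 to 500 µg/mL, and ATF3, a stress factor that shares the list, fell by 0.59. MYC was the member that rose, by 0.20, and it stood 0.23 higher at 100 than at 20 µg/mL. AQP3, the channel for water and glycerol, had the largest change of 100 against 20 µg/mL by the naming rule, 0.70, with 4.81 to 5.15 CPM at 20 µg/mL, 7.67 to 8.42 CPM at 100 µg/mL and 5.08 to 5.44 CPM at 500 µg/mL.

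**Figure D3:**
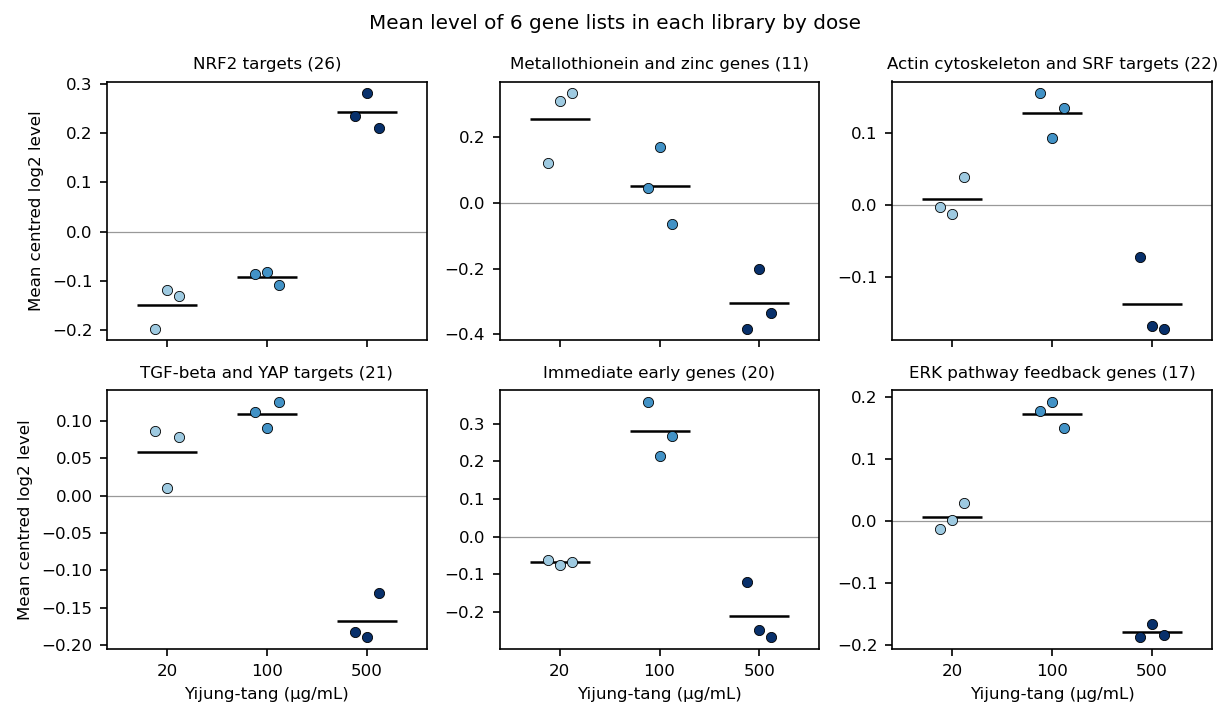
Mean log2 level of 6 gene lists in each Yijung-tang library (vertical axis), centred for each gene on its mean over the 9 libraries, at 20, 100 and 500 µg/mL (horizontal axis); points are libraries and lines are means. NRF2 targets lie between 0.21 and 0.28 at 500 µg/mL and below 0 at the lower doses, metallothionein and zinc genes step down, and immediate early genes lie between 0.21 and 0.36 at 100 µg/mL and below 0 at the other doses.

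WNT targets and inflammatory genes were lower at the high dose. Of 16 tested WNT targets 7 fell between 20 and 500 µg/mL (median -0.15) and 1 between 20 and 100 µg/mL (median 0.01). LGR5, a receptor for R-spondins, held 144, 149 and 146 CPM at 20 µg/mL, 143, 147 and 140 CPM at 100 µg/mL and 110, 114 and 118 CPM at 500 µg/mL, a change of -0.36. Only the libraries at 500 µg/mL stood apart. NKD1, an intracellular WNT inhibitor, fell by 0.24, and the count of 7 became 4 when replicate 1 or 3 at 20 µg/mL or replicate 1 or 2 at 500 µg/mL was left out. Of 12 NF-kB and cytokine genes 5 fell (median -0.25). UBD, a ubiquitin-like protein induced by cytokines, fell by 0.77, from 16.9, 17.5 and 18.6 CPM to 9.50, 10.1 and 11.3 CPM, and TNFAIP3, a brake on NF-kB, fell by 0.41. In the fit to the 6 libraries alone, 1 WNT target and 2 NF-kB and cytokine genes were called. None of 18 interferon and antigen presentation genes was called by edgeR or DESeq2, and none had an unadjusted p under 0.05 (median 0.01).

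Genes outside the lists that fell most by the naming rule included SOX4, a developmental transcription factor, with 41.0, 37.5 and 35.6 CPM at 20 µg/mL, 37.9, 37.0 and 43.9 CPM at 100 µg/mL and 22.6, 21.2 and 22.8 CPM at 500 µg/mL. It fell by 0.78, and the lower doses overlapped. L1CAM, a cell adhesion molecule, and VCAN, a large matrix proteoglycan, fell by 0.77 and 0.76. Of those that rose, PTGR1, a prostaglandin reductase, went from 16.2, 19.3 and 18.4 CPM to 25.7, 27.8 and 27.5 CPM, a change of 0.59. BHMT2, which methylates homocysteine, rose by 0.50, and KLF15, a metabolic transcription factor, rose by 0.44.

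Cholesterol synthesis, proliferation, stress and glycolysis genes had list medians near 0. Of 25 cholesterol synthesis genes 1 was called by edgeR and 2 by DESeq2, with 6 lower and none higher at an unadjusted p under 0.05 (median -0.05). Of 25 mitosis genes 1 was called by each tool, with 4 higher and none lower at an unadjusted p under 0.05 (median 0.02). The gene called by edgeR was the mitotic kinase PLK1 (0.16; lost when any of 5 single libraries was left out). Of 26 DNA replication genes none was called by edgeR and 1 by DESeq2, with 1 higher and 1 lower at an unadjusted p under 0.05. None of 18 p53 targets was called by either tool, with 1 higher at an unadjusted p under 0.05. Of 15 cytosolic chaperones none was called by either tool, with 1 higher at an unadjusted p under 0.05, and of 18 chaperones of the endoplasmic reticulum 4 fell slightly (median -0.04). Among 23 ATF4 and amino acid response genes 3 rose and 1 fell; without replicate 1 at 20 µg/mL none rose, and without replicate 1 or 2 at 500 µg/mL 1 rose. Of the 20 glycolysis genes 3 enzymes rose, among them ALDOA (0.21) and GPI (0.18), while the glucose carriers SLC2A1 and SLC2A3 fell by 0.32 and 0.39. SLC2A1 stood at 654 to 672 CPM at 20 µg/mL, 717 to 734 CPM at 100 µg/mL and 526 to 541 CPM at 500 µg/mL, and its doses did not overlap.

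Hepatocyte products shifted in both directions. Of 11 acute phase genes 4 fell (median -0.13), among them SERPINA3, a protease inhibitor (-0.40), and HPX, which binds heme (-0.28; lost when any of 5 single libraries was left out), and 2 fell without replicate 1, 2 or 3 at 500 µg/mL or without replicate 2 at 20 µg/mL. Of 19 plasma carriers and apolipoproteins 2 rose and 1 fell, and of 21 coagulation and complement genes 1 rose, the thrombin inhibitor SERPINC1 (0.25), and 1 fell. Of 11 drug-metabolising cytochromes P450 2 rose (median 0.15). A few hepatocyte genes dipped at the middle dose. ALDH1L1, a folate enzyme, stood at 40.2, 34.3 and 37.3 CPM at 20 µg/mL, at 28.0, 28.6 and 29.7 CPM at 100 µg/mL and at 47.0, 42.1 and 46.6 CPM at 500 µg/mL. It fell by 0.37 from 20 to 100 µg/mL and rose by 0.65 from 100 to 500 µg/mL, and CYP4F3, a fatty acid hydroxylase, had -0.26 and 0.60 in the same comparisons.

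**Figure D4:**
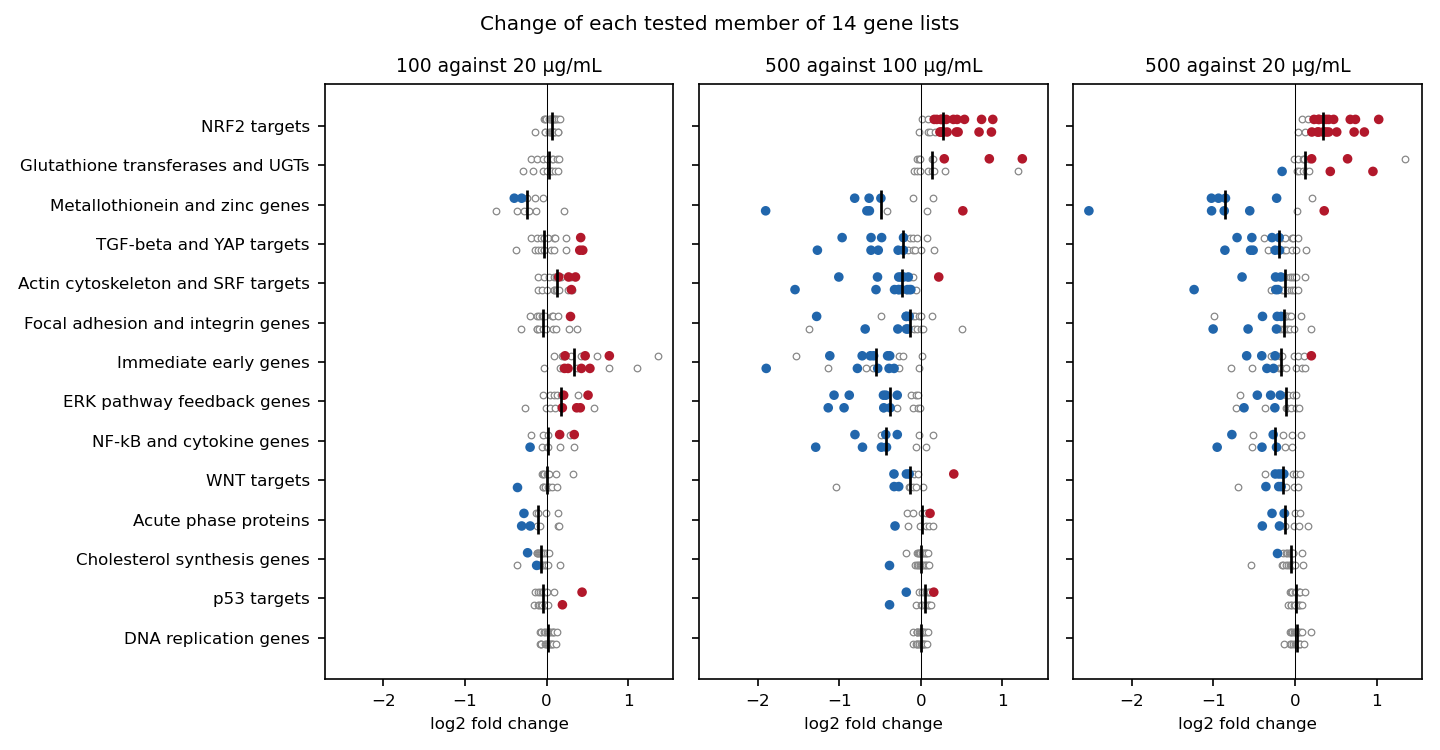
Log2 fold change (horizontal axis) of each tested member of 14 gene lists (rows) for 100 against 20, 500 against 100 and 500 against 20 µg/mL (panels, which share libraries); filled points are called genes, open points are not, and bars are list medians. NRF2 targets lie to the right of 0 for 500 against 20 µg/mL (median 0.35), metallothionein and zinc genes to the left (median -0.85), and the immediate early genes to the right for 100 against 20 µg/mL (median 0.34) and to the left for 500 against 100 µg/mL (median -0.55).

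Against vehicle, 4371 genes were called at 20 µg/mL (27.2%; 2383 higher, 14.8%, and 1988 lower, 12.4%) and 5254 at 500 µg/mL (32.6%). The trend of level with GC content lay between -0.51 and -0.43 in the vehicle libraries. With that trend removed from each library the count at 20 µg/mL was 1533, of which 441 were higher and 1092 lower, and with GC and length trends removed it was 1166. The vehicle libraries share the title label BatchB with the Yijung-tang libraries but carry another title code. The set by that code and the treatment cannot be told apart, and vehicle levels are given here only beside the doses. For AKR1B10 the vehicle mean was 100.5 ± 2.27 CPM (SD, n = 3), above all 20 µg/mL libraries and below all 500 µg/mL libraries, and for MT1F it was 66.9 ± 2.61 CPM, above all 9 Yijung-tang libraries.

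The dose effect was then set beside those of the other 2 extracts, as the difference of the 500 against 20 µg/mL changes. Against Banhasasim-tang 1947 genes differed (12.1%), 809 with a more positive change in Yijung-tang (5.03%) and 1138 with a more negative one (7.07%). Against Citri Unshius Pericarpium 109 genes differed (0.677%), 48 in the positive (0.298%) and 61 in the negative direction (0.379%). Citri Unshius Pericarpium was picked as the replicated extract with the next smallest dose response in an earlier analysis of these data. That choice bears on the lower count, which is therefore no measure of likeness between the extracts. Under Banhasasim-tang alone 2433 genes were called (15.1%; 8.59% of those tested higher and 6.52% lower), and under Citri Unshius Pericarpium 265 (1.65%; 0.727% higher and 0.92% lower). The 2 differences share the Yijung-tang libraries.

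Metallothioneins fell under all 3 extracts, and further under Banhasasim-tang than under Yijung-tang. Of the 11 metallothionein and zinc genes 9 fell under Banhasasim-tang (median -1.51) and 7 under Citri Unshius Pericarpium (median -0.55). The difference from Banhasasim-tang was called as more positive in Yijung-tang for 8 of the 11 and as more negative for 1, and the difference from Citri Unshius Pericarpium for none by edgeR, with 1 higher and 3 lower at an unadjusted p under 0.05. MT1F, at 64.6, 72.2 and 64.9 CPM with 20 µg/mL of Banhasasim-tang, stood at 9.74, 10.5 and 8.79 CPM with 500 µg/mL, a change of -2.80 against -1.03 for Yijung-tang. The 500 µg/mL libraries of Banhasasim-tang lay below every Yijung-tang library. Under Citri Unshius Pericarpium it changed by -0.80.

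NRF2 targets rose under each extract, 16 of 26 with Banhasasim-tang (2 fell; median 0.20) and 17 with Citri Unshius Pericarpium (none fell; median 0.25). The change was more positive in Yijung-tang than in Banhasasim-tang for 8 and more negative for 4, and more positive than in Citri Unshius Pericarpium for 2. HMOX1, with 0.74 in Yijung-tang, changed by -0.25 in Banhasasim-tang and 0.34 in Citri Unshius Pericarpium, and GCLM by 0.50 and 0.59 against 0.68. GSTA2 changed by 0.96 in Yijung-tang, -0.76 in Banhasasim-tang and -0.01 in Citri Unshius Pericarpium, and SLC22A7 by 0.76, -0.78 and 0.26. CYP1A1 rose under each, by 1.33, 1.82 and 3.13 in the same order, and its change was smaller in Yijung-tang than in Citri Unshius Pericarpium by 1.80 (difference -1.80, adjusted p = 9.8e-10).

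Cytoskeletal, immediate early and ERK feedback genes that were called moved mostly down under Yijung-tang and mostly up under Banhasasim-tang. Of the 22 actin and SRF genes 10 rose and 1 fell under Banhasasim-tang, against 6 that fell under Yijung-tang, and the difference was more negative in Yijung-tang for 12 and more positive for 1 (median -0.30). For the 17 ERK feedback genes the difference was more negative for 10 (median -0.51), and for the 20 immediate early genes for 9 (median -0.65). ANKRD1 rose by 0.37 under Banhasasim-tang and fell by 0.31 under Citri Unshius Pericarpium. Of the 20 glycolysis genes 17 rose and none fell under Banhasasim-tang (median 0.38), against 3 that rose and 2 that fell under Yijung-tang (median 0.08), and the difference was more negative in Yijung-tang for 12 (median -0.28). Of the 25 cholesterol synthesis genes 22 fell under Banhasasim-tang (median -0.34), and the difference was more positive in Yijung-tang for 18 and more negative for 1 (median 0.31).

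**Figure D5:**
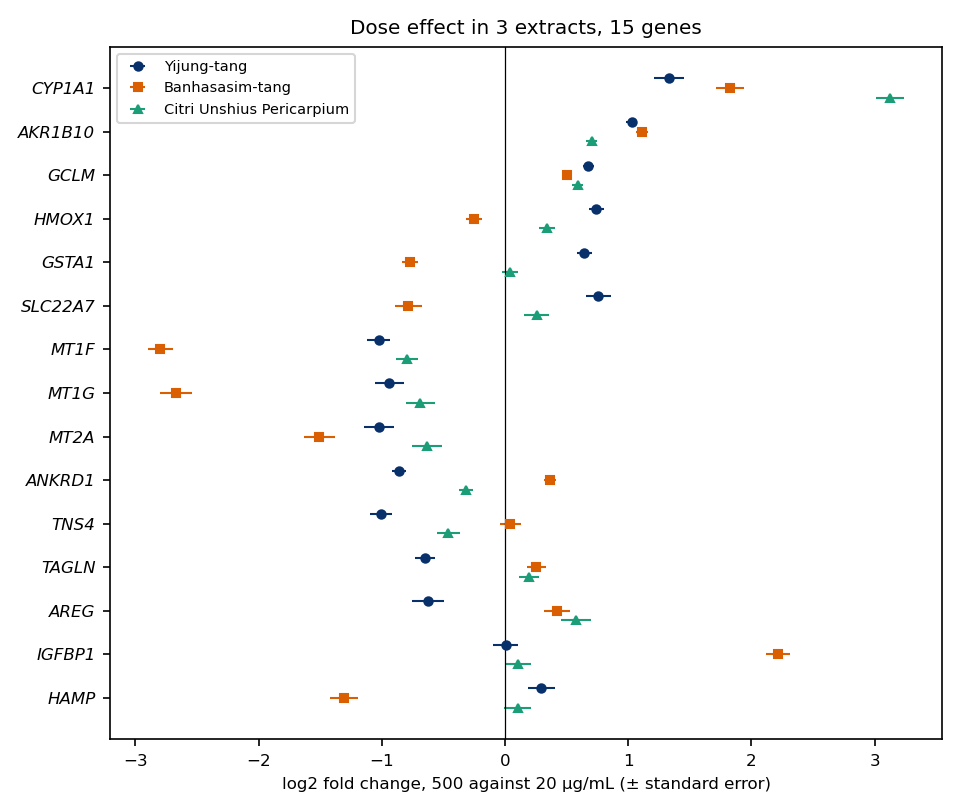
Log2 fold change of 500 against 20 µg/mL (horizontal axis; bars are ± 1 SE of the fit) of 15 genes (rows) for Yijung-tang, Banhasasim-tang and Citri Unshius Pericarpium, 3 libraries a dose. HMOX1, GSTA1 and SLC22A7 lie on opposite sides of 0 for the 2 mixtures, CYP1A1 is to the right for all 3 extracts and MT1F to the left for all 3.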

How the data were processed

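RNA from HepG2 cells was sequenced as paired reads, and per the submitters' processing notes the authors used FastQC 0.11.9, Trim Galore 0.6.5, STAR 2.7.3a and RSEM 1.3.3 with the builds hg38 and GRCh38. The annotation release is not given in the sources used here. The deposited table holds expected counts per gene as the authors' RSEM run estimated them, not normalized; 24.5% of its values above 0 are not whole numbers, and they were rounded. It also holds 207 columns that match no sample analysed here, which were not used. Symbols matched 57055 of 60675 gene identifiers, and coordinates of genes come from GENCODE 29 (GRCh38).

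Counts were filtered with filterByExpr, scaled by TMM and fitted with edgeR 4.0.16 (limma 3.58.1, R 4.3.3) as a quasi-likelihood model of 57 libraries in 19 groups. Groups with 1 library were left out of the fit. A gene was called at a Benjamini-Hochberg adjusted p under 0.05 over all 16093 tested genes; the standard error is the log2 fold change divided by the root of the F statistic, and the common biological coefficient of variation was 4.86%. The same steps were also run on counts drawn from the fitted means and dispersions. Such a run cannot speak to technical replicates or to the GC and length trends. Alternatives were DESeq2 1.42.0, other filters, size factors, subsets of libraries, a replicate block, leaving out single libraries, and removal of GC and length trends by lowess (span 0.3).

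Genes named were the 15 with the largest positive and the 15 with the largest negative fold change among called protein-coding genes with a mean of 5 CPM or more, no near-identical copy and no overlap of libraries, the 3 highest and lowest for the other dose steps, the 6 highest and lowest for the difference from Banhasasim-tang, and up to 6 called members of each list with the smallest p, with uncalled members of lists that had 4 or more calls. The members and gene lists were chosen with earlier results of these data known. Several further list members are given for their role, chosen after their values were seen. Results on a few of the genes so chosen were left out of the text.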

Additional observations from a re-analysis of the deposited data

Results flagged for a closer look

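These values were singled out because the change between 20 and 500 µg/mL differed between extracts in a test of the difference itself (edgeR, Benjamini-Hochberg adjusted p under 0.05). The difference from Banhasasim-tang was called for 1947 genes and that from Citri Unshius Pericarpium for 109. Changes more positive in Yijung-tang than in Banhasasim-tang were those of MT1F (difference 1.77, log2), MT1G (1.73), GSTA2 (1.71), HAMP (1.60), SLC22A7 (1.54) and GSTA1 (1.41). MT1F and MT1G, both metallothioneins, fell under both mixtures and further under Banhasasim-tang, where MT1G went from a mean of 129 ± 6.10 CPM to 20.3 ± 1.90 CPM (SD, n = 3). HAMP encodes hepcidin, the hormone that limits iron uptake; under Banhasasim-tang it stood at 65.2, 88.4 and 60.8 CPM at 20 µg/mL and at 27.2, 30.9 and 28.6 CPM at 500 µg/mL, while the Yijung-tang doses had means of 59.1 ± 9.32 and 72.7 ± 9.68 CPM.

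Changes more negative in Yijung-tang were those of IGFBP1 (-2.21), CHST15 (-1.74), AKAP12 (-1.42), L1CAM (-1.41) and FILIP1L (-1.33). IGFBP1, a secreted binder of insulin-like growth factors, stood at 47.8, 50.9 and 51.7 CPM with 20 µg/mL of Banhasasim-tang and at 223, 228 and 247 CPM with 500 µg/mL. Its Yijung-tang means were 48.1 ± 0.595 CPM at 20 µg/mL and 48.3 ± 7.14 CPM at 500 µg/mL, and the 500 µg/mL libraries of the 2 mixtures did not overlap. CHST15, a chondroitin sulfotransferase, went from 8.44 ± 0.978 to 22.4 ± 0.864 CPM with Banhasasim-tang and from 9.76 ± 0.756 to 7.73 ± 0.763 CPM with Yijung-tang. AKAP12, a scaffold of protein kinase A, went from 93.5 ± 9.14 to 175 ± 3.65 CPM and from 108 ± 4.64 to 75.3 ± 6.98 CPM in the same order.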

How the results depend on the processing

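Among the called genes that were named or listed, no log2 fold change of 500 against 20 µg/mL changed sign under any alternative. Signs were not followed for the remaining genes or for the other dose steps. The count of 607 genes between 20 and 500 µg/mL (266 higher, 341 lower) was 135 in a fit to the 6 libraries (69 and 66), 216 to the 9 Yijung-tang libraries (96 and 120) and 320 to the 18 libraries that share the title code (144 and 176). Leaving out single libraries gave 343 to 853 genes, 145 to 378 higher and 197 to 475 lower. Other size factors, filters, DESeq2 and removal of GC or length trends gave 605 to 813. Of 145 called genes that were named or listed, 63 were called in the fit to the 6 libraries and between 106 and 132 without 1 library. The 200 genes between 20 and 100 µg/mL became 375 with no filter, 307 with the GC trend removed, 384 with GC and length trends removed, 18 in a fit to the 9 libraries, 65 in a fit to the 18, and 70 to 217 without 1 library. The 887 genes between 100 and 500 µg/mL became 472 in a fit to the 9 libraries. The 109 genes of the difference from Citri Unshius Pericarpium became 216 with no filter and 204 with both trends removed, and the 4371 genes against vehicle became 1533 and 1166 with the GC trend or both trends removed. The cause of these moves was not tested beyond what fewer libraries in a fit entail. Chosen after seeing the data were removal of the length trend in every comparison, all alternatives for the difference from Citri Unshius Pericarpium and for the vehicle comparison, for the 2 other dose steps the filters, the 18-library fit, the block and leaving out single libraries, and for the difference from Banhasasim-tang the size factors, the filters and leaving out single libraries.

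The labels do not say what a replicate number shares. Same-numbered libraries had correlations of -0.029 to 0.14 in their deviations from the group means, and others -0.138 to 0.089; replicates 1 and 3 at 20 µg/mL correlated best with a library of another number and the other 7 with one of their own. The numbers were not taken as pairs because the labels do not give them as such. The correlations are a hint from the data, not the design. With a replicate block in the 9 libraries, 389 genes were called between 20 and 500 µg/mL (177 higher, 212 lower), against 216 without it. Between 20 and 100 µg/mL 55 were called with that block, against 18 without it. With the block in the 18 libraries, 522 were called between 20 and 500 µg/mL, against 320 without it. Depth limits what can be said of genes under about 1 CPM, such as CNN1 and ALDH3A1.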

Other observations

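Tubulin and sulfotransferase genes, 2 families picked after their values were seen, moved at the high dose. Of 16 tested tubulins 5 rose and 1 fell between 20 and 500 µg/mL, with a median of 0.14. TUBA1C, an alpha tubulin, stood at 386, 439 and 435 CPM at 20 µg/mL, at 523, 482 and 476 CPM at 100 µg/mL and at 612, 561 and 528 CPM at 500 µg/mL, and it rose by 0.43. Its 3 doses did not overlap. TUBA1B rose by 0.37 and TUBB4B by 0.27, whereas TUBA1A, which differs little from them in sequence, fell by 0.63, from 18.6, 19.1 and 17.8 CPM to 13.4, 11.4 and 10.96 CPM. RSEM splits reads among these copies, so the level of each is uncertain. Of 9 tested sulfotransferases, which conjugate steroids and phenols, 4 rose and none fell (median 0.25). SULT2A1, the sulfotransferase of bile acids and steroids, stood at 130, 142 and 139 CPM at 20 µg/mL and at 156, 171 and 161 CPM at 500 µg/mL, a change of 0.25. The near-identical SULT1A genes SULT1A1, SULT1A2 and SULT1A4 rose by 0.32, 0.38 and 0.52, with reads shared among them.

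Of 15 transcripts of mitochondrial DNA 3 rose (median 0.32): the ribosomal RNAs MT-RNR1 (0.42) and MT-RNR2 (0.32), and MT-CO2 (0.34), a subunit of cytochrome c oxidase; without replicate 2 at 20 µg/mL 7 were called. None of 12 bile acid genes was called between 20 and 500 µg/mL by edgeR or DESeq2, with 3 higher and 1 lower at an unadjusted p under 0.05. Between 20 and 100 µg/mL 3 of them fell: the bile acid receptor NR1H4 (-0.22), the co-receptor KLB (-0.23) and the efflux carrier subunit SLC51A (-0.52). SQSTM1, an autophagy receptor, reached its level by the middle dose, with 260 to 267 CPM at 20 µg/mL, 318 to 336 CPM at 100 µg/mL and 313 to 331 CPM at 500 µg/mL. KRT19, a keratin of bile duct cells, fell by 0.47 and SPP1, osteopontin, rose by 0.32, while CFTR, another duct marker, was at 0.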
